A study of Mus musculus with 14 samples.

Results

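The 9 genes described here are the core of the Hedgehog pathway: the ligands Shh, Ihh and Dhh, the receptor Ptch1, the signal transducer Smo, the ligand-binding inhibitor Hhip, and the transcription factors Gli1, Gli2 and Gli3. They were taken by gene symbol, as a list chosen with earlier results of these data known. All 9 were among the 55291 symbols counted in 14 bulk RNA-seq libraries of the C57BL/6 mouse esophagus. Each library came from 1 layer of 1 animal. The 9 animals carried no named allele or treatment and differed in age, with 5 aged mice of at least 18 months and 4 young mice of at most 4 months. The epithelium, peeled from the muscle layer with forceps, was sequenced from all 9 mice, that is from the aged mice O1, O2, O3, OF5 and OM8 and the young mice Y1, Y3, YF5 and YM4. The stroma was sequenced from 5 of them, the aged mice O1, O2 and O3 and the young mice Y1 and Y3. The p-values for age within a layer therefore measure the spread between mice. Those between layers and for the interaction treat the libraries as independent, although 5 mice gave both layers. The exceptions are the fits named as having mouse as a replicate block. In bulk tissue fewer cells of a type cannot be told apart from less RNA per cell.

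Hedgehog ligands are secreted proteins that bind Patched receptors on nearby cells. Without ligand, Ptch1 keeps Smo inactive, and the Gli proteins are processed to repressors or degraded. With ligand, Smo accumulates in the primary cilium and the Gli proteins act as activators. Gli1, Ptch1 and Hhip are themselves induced by the signal, and in the gut the ligands are best known as epithelial signals to the mesenchyme beneath.

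Library totals ran from 8217516 to 21867101 counts. The 4 mice without stroma (OF5, OM8, YF5 and YM4) stood apart, with 63.9% to 73.9% of their counts on ribosomal RNA and only 1041386 to 1432506 counts on protein-coding genes, against 6619582 to 11051045 in the other 10 libraries. Levels are given as normalized counts, meaning counts per 1000000 of the library total after scaling by the trimmed mean of M-values (TMM). A floor of 3 counts corresponds to 0.707 to 1.25 normalized counts in these 4 libraries and to 0.0872 to 0.175 in the others, and such limits cover counting error only. The layer labels matched their markers. The summed level of 6 differentiated epithelial keratinocyte genes was 17116 to 53232 in epithelium and 35.3 to 435 in stroma, and that of 6 skeletal muscle genes was 3.79 to 733 in epithelium and 14545 to 22831 in stroma. The epithelial sheets also held RNA of mesenchymal cells, since 5 smooth muscle genes summed to 333 to 835 in epithelium and 303 to 2051 in stroma, and 6 fibroblast genes to 280 to 632 and 415 to 1031.

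Ligand transcripts were scarce in both layers, while the receptor, transducer and factors had at least 1 count in every library. Gli2 in OM8 (1 count) and Gli1 in YM4 (2 counts) lay below the floor of 3 counts. So did Hhip in OF5 and YM4 (2 counts each) and in YF5 (1 count). Because the genes differ in length, their levels were ordered as normalized counts per kilobase of exon. In epithelium this order was led by Smo at 4.03 ± 0.698 (SD, n = 9), followed by Ptch1 at 0.555 ± 0.0776, Gli3 at 0.445 ± 0.112, Gli1 at 0.373 ± 0.225, Gli2 at 0.326 ± 0.134 and Hhip at 0.103 ± 0.0514. The ligands closed it, with mean levels per kilobase of 0.0254 for Dhh, 0.0134 for Ihh and 0.00451 for Shh. In stroma the per-kilobase order again began with Smo, at 2.07 ± 0.488 (SD, n = 5), and Ptch1, at 0.716 ± 0.210. Gli2 at 0.711, Gli3 at 0.691 and Gli1 at 0.459 came next on the same scale, and Ihh at 0.236 and Dhh at 0.172 lay above Hhip at 0.115. Among neighbours in these orders, the sample ranges separated Smo from Ptch1 in both layers and Hhip from the undetected Shh in stroma, and the ranges of all other neighbours overlapped.

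**Figure D1:**
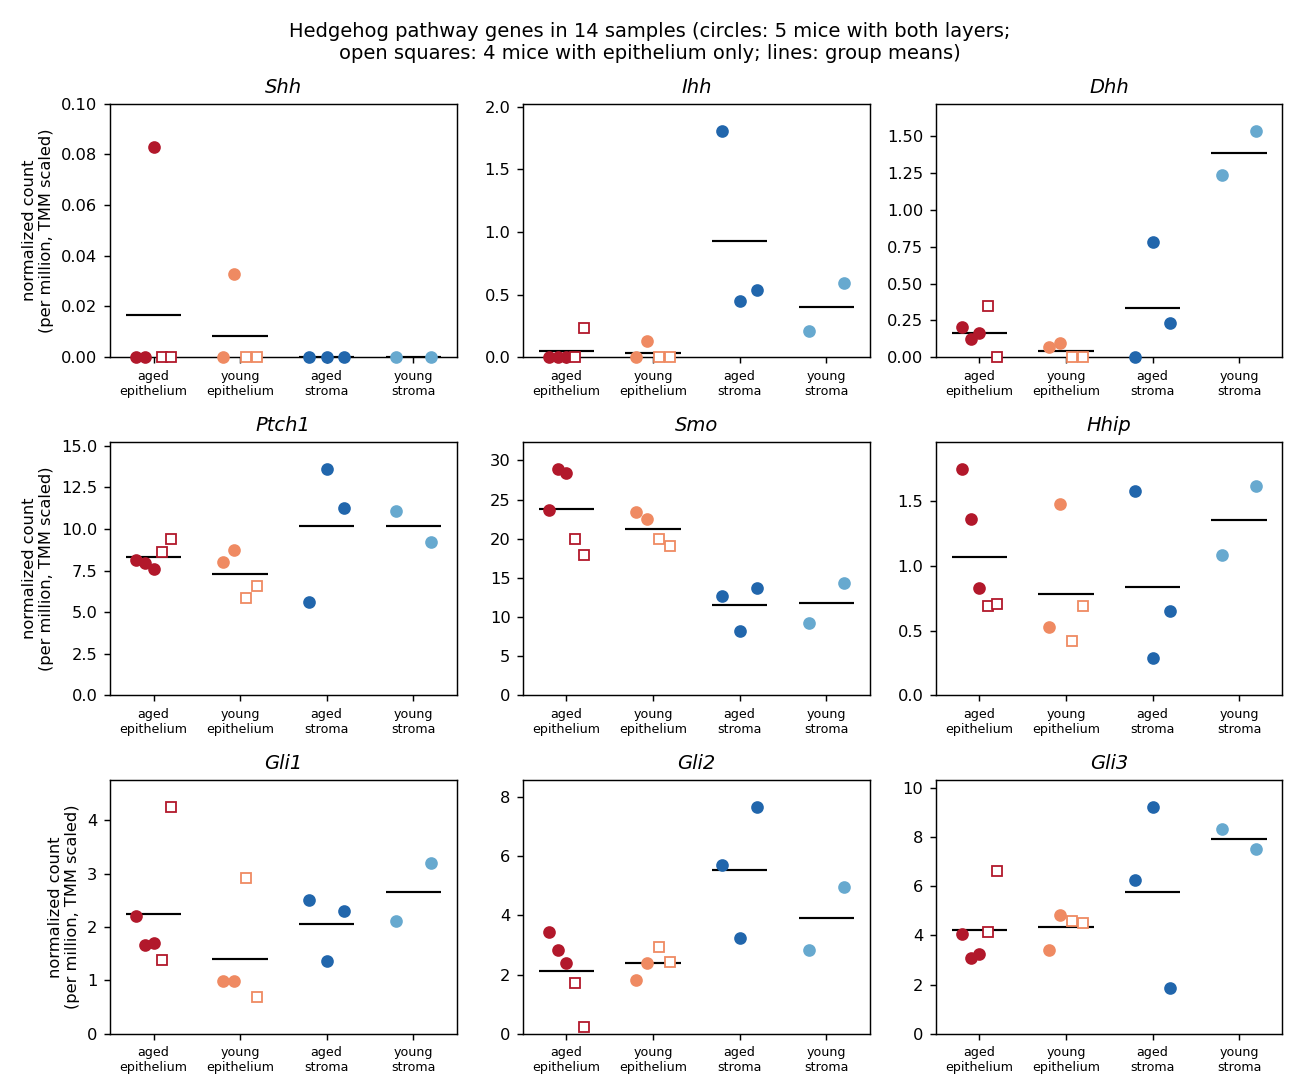
Normalized counts (per 1000000, TMM scaled, linear axis from 0) of the 9 Hedgehog pathway genes in each of the 14 libraries, by age and layer. Circles are the 5 mice with both layers, open squares the 4 mice with epithelium only, and lines are group means. Smo values in the 9 epithelial libraries, 17.9 to 28.9, all lie above the stromal ones, 8.26 to 14.3, and Ihh is at 0 in 7 of 9 epithelial libraries and above 0 in all 5 stromal ones.

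RefSeq promoter sequence was held for 7 of the 9 genes, all but Shh and Gli1. The 250 bases upstream of the RefSeq start are shown for the ligands found mainly in stroma, Ihh and Dhh, and for the members called between the layers, Smo and Gli2, on the GRCm38.p6 build and read 5′ to 3′ on the gene's strand, with CpG dinucleotides in capitals.
Ihh (chr1:74951673-74951922, - strand): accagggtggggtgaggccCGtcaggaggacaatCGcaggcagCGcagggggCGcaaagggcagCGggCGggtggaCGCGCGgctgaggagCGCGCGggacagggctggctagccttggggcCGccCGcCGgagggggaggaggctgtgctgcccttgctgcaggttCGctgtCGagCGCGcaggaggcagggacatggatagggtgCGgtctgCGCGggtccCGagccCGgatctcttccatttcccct
Dhh (chr15:98898541-98898790, - strand): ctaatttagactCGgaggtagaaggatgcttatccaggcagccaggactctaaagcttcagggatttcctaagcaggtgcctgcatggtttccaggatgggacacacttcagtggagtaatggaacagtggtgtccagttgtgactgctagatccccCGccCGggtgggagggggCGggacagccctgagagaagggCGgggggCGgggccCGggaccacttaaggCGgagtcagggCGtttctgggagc
Smo (chr6:29735247-29735496, + strand): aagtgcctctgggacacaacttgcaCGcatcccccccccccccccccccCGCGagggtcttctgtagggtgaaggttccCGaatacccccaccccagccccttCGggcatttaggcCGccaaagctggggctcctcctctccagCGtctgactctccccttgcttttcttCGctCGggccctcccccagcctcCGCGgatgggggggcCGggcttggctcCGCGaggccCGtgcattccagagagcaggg
Gli2 (chr1:119053620-119053869, - strand): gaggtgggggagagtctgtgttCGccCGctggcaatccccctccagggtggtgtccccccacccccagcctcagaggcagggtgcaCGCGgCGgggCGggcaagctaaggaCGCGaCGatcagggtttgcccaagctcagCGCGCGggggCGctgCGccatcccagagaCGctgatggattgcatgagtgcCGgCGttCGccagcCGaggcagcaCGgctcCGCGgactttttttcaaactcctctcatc
These windows held 24 CpG in Ihh, 9 in Dhh, 15 in Smo and 22 in Gli2, against a median of 6 over the 32851 promoters of the table, and Ptch1 with 41 exceeded 98.9% of them. The Gli-binding core GACCACCCA, searched on both strands from 250 bases before to 50 bases after the start, was in 0 of the 7 windows and in 0.253% of all promoters of that length. This says only that these letters are not in these windows.

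Among the ligands, Ihh and Dhh had more counts in stroma than in epithelium, and Shh was close to undetected. All 3 were too low for the filter of the layer test across genes. Shh, the ligand best known from the embryonic foregut, had 3 counts in total, of which 2 were in the epithelium of O3 and 1 in that of Y3, and 0 in the 5 stromal libraries. Shh was therefore not measurable at this depth in either layer, and 446 bases of its exons are also covered by the antisense gene 9530036O11Rik.

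Ihh, a ligand known for the growth plate and the intestinal epithelium, had 5 counts over 9 epithelial libraries and 75 over 5 stromal libraries. In epithelium it was at 0 in 7 libraries, with 1 count in OM8 (0.236 normalized counts) and 4 counts in Y3 (0.131). The floors of 3 counts in OF5, YF5 and YM4 were 1.03, 1.25 and 1.04 normalized counts. They lay above the stromal values of O2, O3, Y1 and Y3, so the zeros of these shallow libraries do not separate the layers. In stroma its normalized counts were 1.81 in O1, 0.452 in O2, 0.536 in O3, 0.206 in Y1 and 0.591 in Y3. All 5 stromal libraries thus held Ihh, and the groups overlapped only through the 1 count of OM8, which exceeded the stroma of Y1. Pooled over libraries, the stromal rate was 21.7 times the epithelial one (95% exact interval 8.91 to 68.9, counting error only). Of the 5 epithelial counts 4 came from Y3, and without the stroma of O1 the difference of the means shrank from -0.68 to -0.41. The 9 epithelial libraries had a mean of 0.0407 ± 0.0850 (SD) and the 5 stromal ones of 0.719 ± 0.627 (SD). A two-sided exact permutation test of the layer labels over the 14 libraries gave p = 0.0020, where the smallest p it can give is 0.0010. Without the shallow libraries, in the 5 mice with both layers alone, that exact permutation p was 0.0079. This is the smallest p that the test can give for those libraries. It treats the layers of a mouse as independent, and a permutation within mice was not run. With no filter on low counts the edgeR quasi-likelihood test gave a log2 fold change of -3.96 (SE 1.22) for Ihh in epithelium over stroma with a Benjamini-Hochberg adjusted p of 0.00706, in a fit that called 17.0% of all 49574 genes lower in epithelium.

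Dhh, the ligand known from Schwann cells and the testis, had 21 counts in epithelium and 88 in stroma. Its stromal normalized counts were 0 in O1, 0.781 in O2, 0.230 in O3, 1.24 in Y1 and 1.54 in Y3, and its epithelial ones ran from 0 through a median of 0.0981 to 0.345 in OF5. Stroma of O2, Y1 and Y3 lay above every epithelial library, while stroma of O1 and O3 lay within the epithelial range. The pooled stromal rate was 6.07 times the epithelial one (95% exact interval 3.74 to 10.3, counting error only). The mean of the 9 epithelial libraries was 0.112 ± 0.115 (SD) and that of the 5 stromal libraries 0.757 ± 0.650 (SD), which gave p = 0.026 by the two-sided exact permutation test. In the 5 mice with both layers alone that exact permutation p was 0.103, and without the stroma of O2, of Y1 or of Y3 it was 0.0727. With no filter the edgeR quasi-likelihood test gave -2.37 (SE 1.06) on the log2 scale and an adjusted p of 0.0769.

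Schwann cell genes were, like Dhh, lowest in the stroma of O1 and higher in that of both young mice than of any aged mouse, though O2 and O3, and Y1 and Y3, stood in the opposite order. The summed level of a list of 6 of them was 27.5 in O1, 49.5 in O2, 82.3 in O3, 125 in Y1 and 101 in Y3, and 22.1 to 38.8 in epithelium. Of these 6, 5 were called lower in epithelium, and the sixth, Mbp, made up 25.4 of the mean epithelial sum of 27.6. The part of these genes in the Dhh result was not tested. The Dhh gene shares 546 exonic bases, 12.4% of its exon length, with Rhebl1 on the same strand, and 1107 bases, 25.2%, with the antisense gene Gm49442. How reads in shared bases were assigned is not given in the sources used here.

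Between the layers, 6 of the 9 members passed the filter on low counts, and the call rule (edgeR quasi-likelihood test, Benjamini-Hochberg adjusted p under 0.05) called 1 higher in epithelium, Smo, and 1 lower, Gli2. The same rule called 56.2% of all 16791 genes tested, 26.1% as higher and 30.1% as lower in epithelium, so that 2 of 6 members is a smaller share than the background. The median of the 6 log2 fold changes was -0.35, beside a median of -0.05 over all genes tested.

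Smo, the membrane protein that relays the signal, was higher in epithelium. Its normalized counts were 17.9 at the lowest, 22.5 at the median and 28.9 at the highest of 9 epithelial libraries, and 12.7 in O1, 8.26 in O2, 13.8 in O3, 9.24 in Y1 and 14.3 in Y3 in stroma. The layers did not overlap, a separation found for 31.3% of all genes tested. The log2 fold change was 0.97 (SE 0.18, 95% interval 0.59 to 1.35, adjusted p = 0.00012 in edgeR), from means of 22.6 ± 3.92 and 11.7 ± 2.74 (SD). The difference had the same direction in 5 of 5 mice with both layers, from 0.63 in Y3 to 1.75 in O2 as a difference of log2(normalized count + 0.5). In the 10 libraries of those mice alone the log2 fold change was 1.13 (SE 0.18).

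Ptch1, the receptor that is also induced by the signal, was not called. Its epithelial normalized counts lay narrowly between 5.83 and 9.43 with a median of 8.0, and its stromal ones were 5.60 in O1, 13.6 in O2, 11.3 in O3, 11.1 in Y1 and 9.22 in Y3. Stroma of O1 was the lowest of all 14 libraries, and stroma of O2, O3 and Y1 lay above every epithelial one. The log2 fold change was -0.36 (SE 0.20, 95% interval -0.78 to 0.07, adjusted p = 0.142 in edgeR). Without the stroma of O1 it was -0.52 and called (adjusted p = 0.0204 in edgeR). Hhip, the decoy that binds ligand at the cell surface, was low in both layers. It ran from 0.417 to 1.74 normalized counts with a median of 0.707 in epithelium, and from 0.288 to 1.62 with a median of 1.08 in stroma. These ranges overlapped almost fully. The epithelial values of OF5, OM8, YF5 and YM4 rested on 1 to 3 counts each, at or below the floor of 3 counts. The log2 fold change of Hhip, -0.06 (SE 0.52, 95% interval -1.15 to 1.04, adjusted p = 0.934 in edgeR), changed sign under several other settings.

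Among the Gli factors, the estimates of all 3 lay on the stromal side and 1 was called. Gli2, the main activator of the pathway, had epithelial normalized counts of 0.236 at the lowest, 2.40 at the median and 3.43 at the highest, and stromal ones of 5.72 in O1, 3.25 in O2, 7.65 in O3, 2.84 in Y1 and 4.96 in Y3. The layers overlapped through the epithelium of O1 (3.43) and of YF5 (2.92), and the epithelial minimum was OM8 with 1 count. The log2 fold change was -1.09 (SE 0.36, 95% interval -1.85 to -0.33, adjusted p = 0.0151 in edgeR), from means of 2.24 ± 0.919 in epithelium and 4.88 ± 1.95 in stroma (SD). It was lower in epithelium in 5 of 5 mice with both layers. In the 10 libraries of these mice the log2 fold change was -0.91 with an adjusted p of 0.0296 in edgeR, and with mouse as a replicate block it was -0.85 with an adjusted p of 0.0571, which ends the call.

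Gli3, which acts mostly as a repressor, had 3.09, 4.13 and 6.60 normalized counts as lowest, median and highest epithelial values, and 6.24 in O1, 9.20 in O2, 1.87 in O3, 8.31 in Y1 and 7.53 in Y3 in stroma. Stroma of O3 was the lowest of all 14 libraries, and stroma of O2, Y1 and Y3 lay above every epithelial library. The log2 fold change was -0.66 (SE 0.31, 95% interval -1.30 to -0.03, adjusted p = 0.0714 in edgeR). Without the stroma of O3 it was -0.91 and called (adjusted p = 0.00222 in edgeR), and without the epithelium of OM8 it was -0.76 and called (adjusted p = 0.042 in edgeR). Gli1, the factor whose own transcript serves as a readout of the signal, had 0.692, 1.67 and 4.24 normalized counts as lowest, median and highest epithelial values. Its stromal normalized counts were 2.51 in O1, 1.36 in O2, 2.30 in O3, 2.12 in Y1 and 3.19 in Y3, all within the epithelial range. The log2 fold change of Gli1 was -0.34 (SE 0.42, 95% interval -1.21 to 0.53, adjusted p = 0.505 in edgeR).

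**Figure D2:**
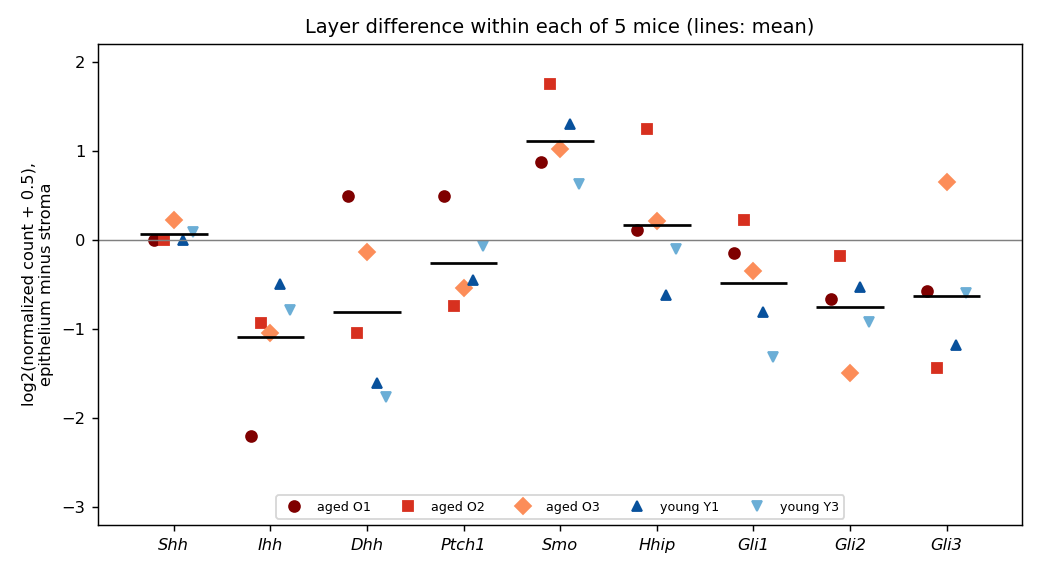
Difference between the epithelium and stroma of the same mouse for each of the 9 genes, as log2(normalized count + 0.5) in epithelium minus stroma, with 1 point per mouse and lines at the mean of 5 mice. Smo is above 0 and Ihh and Gli2 are below 0 in 5 of 5 mice, while Dhh, Ptch1, Gli1 and Gli3 are below 0 in 4 of 5.

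Markers of several other cell types were lower in epithelium, as was Gli2. The genes called lower were 6 of 6 for skeletal muscle, 3 of 3 for adipocytes, 5 of 6 for Schwann cells, 4 of 5 for endothelium, 3 of 6 for fibroblasts and 2 of 5 for smooth muscle, and of the enteric neuron and immune genes that passed the filter 2 of 3 and 1 of 2. The endothelial sums were 12.5 to 24.4 in epithelium and 34.4 to 99.8 in stroma, and the adipocyte sums 0 to 0.943 and 50.5 to 265. Over all genes tested, the same rule called 26.1% higher and 30.1% lower. All 6 basal and all 6 differentiated epithelial genes were called higher in epithelium, as was Smo. Their sums were 838 to 2513 against 14.9 to 63.5 for the basal list and 17116 to 53232 against 35.3 to 435 for the differentiated list. The part of these cell types in the Gli2 and Smo results was not tested.

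The other 42 genes of the pathway, taken from a fixed list, lay mostly on the stromal side. Of the 39 that passed the filter, 5 were called higher and 18 lower in epithelium and 16 were not called, with a median log2 fold change of -0.64. As shares these are 12.8% higher and 46.2% lower, beside 26.1% and 30.1% of all genes tested. In the 10 libraries of the 5 mice with both layers the counts were 5 higher and 20 lower. Over all 16713 genes tested in that fit, 4675 were called higher and 4725 lower.

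Genes that acylate or release the ligands were lower in epithelium in 4 of 5 cases. Scube2, a secreted protein that helps release lipid-modified ligand, fell by 4.17 on the log2 scale (SE 0.51, adjusted p = 6.98e-07 in edgeR), from 3.30 to 11.1 normalized counts in stroma to 0 to 0.833 in epithelium. Scube1 was at -2.15, the acyltransferase Hhat at -1.96 and Scube3 at -1.36, and Disp1, the exporter of the ligand, was not called at -0.60.

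Among the coreceptors, 4 of 6 genes were lower in epithelium. Lrp2, an endocytic receptor that also binds Shh, fell by 4.45 on the log2 scale (SE 0.61, adjusted p = 5.68e-06 in edgeR), with 2.68 to 20.3 normalized counts in stroma and 0 to 1.34 in epithelium. Gas1 was at -1.89 (SE 0.25) and Cdon at -1.66 (SE 0.21), both coreceptors that help ligand bind Ptch1, and their layers did not overlap. Gpc3, a glypican that competes for ligand, was at -1.27. Boc, the paralog of Cdon, differed by 0.01 (SE 0.19, 95% interval -0.39 to 0.41).

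Between Smo and Gli, 16 of 17 listed genes passed the filter, 2 were higher in epithelium and 7 lower. The higher genes were the kinases that phosphorylate Gli proteins, Csnk1a1 at 0.90 (SE 0.15, 154 against 82.8 normalized counts) and Gsk3b at 0.51 (SE 0.14), whereas Prkaca, the catalytic subunit of protein kinase A that primes the same sites, was lower at -1.28 (SE 0.16). Evc and Evc2, ciliary partners of Smo, were at -0.97 and -0.90. Mgrn1, a ubiquitin ligase that lowers Smo at the cell surface, was lower as well at -0.86. So were Btrc at -1.18 and Spop at -0.66, substrate adaptors for Gli turnover. Sufu, the main inhibitor of Gli proteins, differed by -0.04 (SE 0.23, 95% interval -0.52 to 0.45).

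Of 6 cilium genes, Kif3a was higher in epithelium at 0.52, and Ift172 at -1.06 and Tulp3 at -0.81 were lower. Of 8 listed targets, 6 passed the filter. The cyclins Ccnd1 at 1.06 (SE 0.31) and Ccnd2 at 0.86 (SE 0.22) were higher in epithelium, and both are also induced by many other signals. Foxf1, a mesenchymal Hedgehog target, was lower at -1.01 (SE 0.33), and Bmp4 at 0.38, Bcl2 at 0.66 and Foxf2 at -0.01 were not called. The targets thus did not all lie on 1 side.

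**Figure D3:**
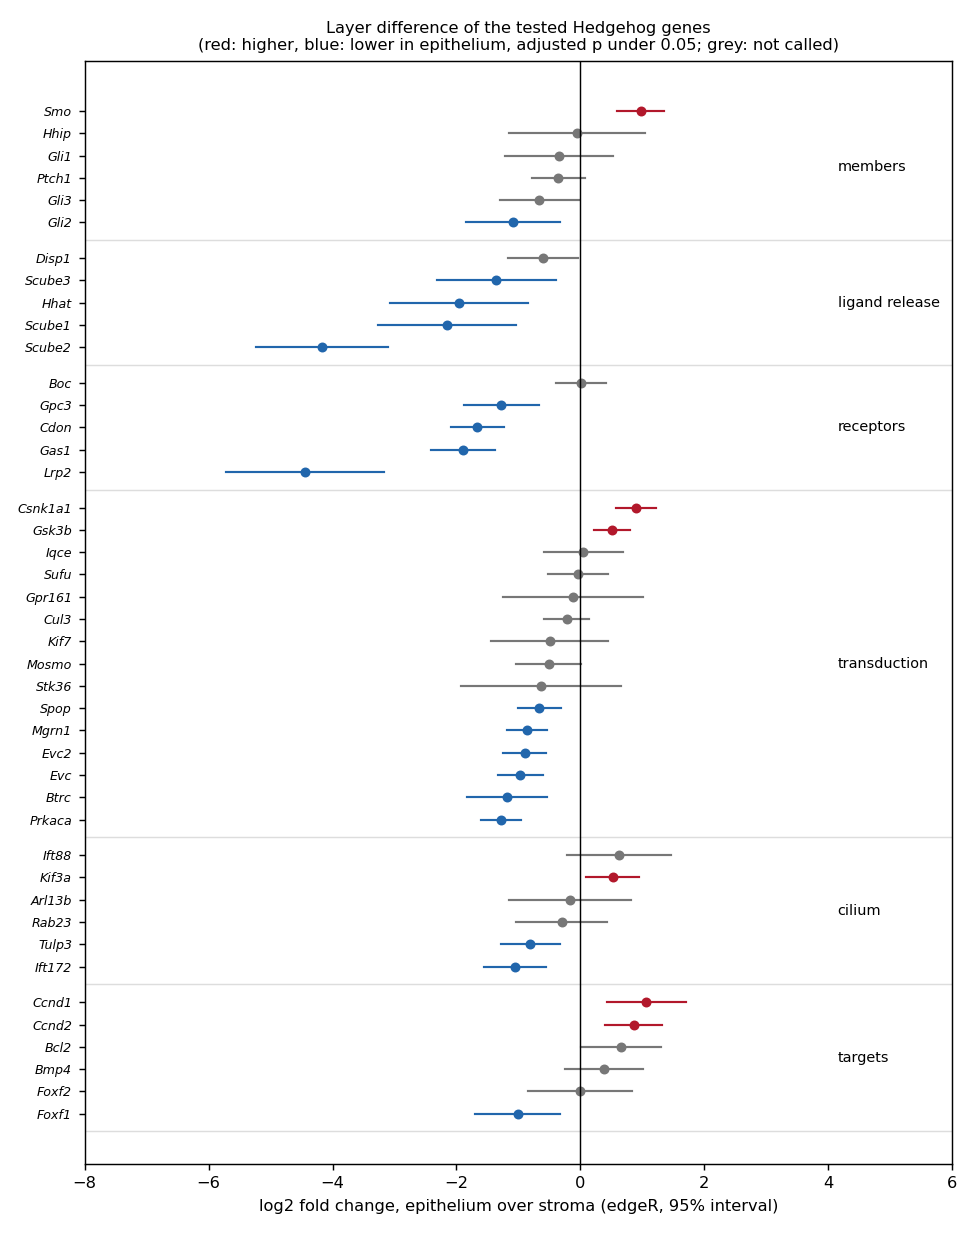
Log2 fold change of epithelium over stroma with 95% intervals for the 6 tested members and 37 of the 39 tested other pathway genes, grouped by role. Red points are called higher in epithelium, blue points lower (edgeR, adjusted p under 0.05), and grey points were not called. The lowest values are Lrp2 at -4.45 and Scube2 at -4.17, and Smo at 0.97 is the called member to the right of 0.

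Age was compared within each layer. In epithelium, with a covariate that separated the 4 libraries rich in ribosomal RNA, 6 members were tested and 0 were called by edgeR, in a fit that called 0.0132% of 15107 genes. DESeq2 called 0 of the 6 as well, and 1 member, Gli1, had an unadjusted p under 0.05, as did 3.36% of all genes. Gli1 normalized counts were 2.21 in O1, 1.67 in O2, 1.70 in O3, 1.38 in OF5 and 4.24 in OM8, and 0.992 in Y1, 0.981 in Y3, 2.92 in YF5 and 0.692 in YM4. The groups overlapped through YF5. The log2 fold change of aged over young was 0.86 (SE 0.38, 95% interval 0.07 to 1.66, unadjusted p = 0.0355 and adjusted p = 0.999 in edgeR), and in the 5 mice with both layers it was 0.91 (SE 0.30).

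The intervals of the other members in epithelium all spanned 0. Smo differed by 0.12 (95% interval -0.15 to 0.40) and Ptch1 by 0.09 (-0.29 to 0.47), the narrowest of the 6. Gli3 differed by -0.11 (-0.61 to 0.40), Gli2 by 0.03 (-0.77 to 0.84) and Hhip by 0.36 (-0.61 to 1.34). The summed level of the 6 fibroblast genes was 280 to 454 in aged and 416 to 632 in young epithelium, and its part in these values was not tested. Of the other pathway genes 34 were tested and 0 were called by edgeR or DESeq2. Only 1, Cul3 (-0.33, SE 0.14), had an unadjusted p under 0.05 in edgeR, beside 3.36% of all genes.

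In stroma, 8 members were tested between 3 aged and 2 young mice and 0 were called by edgeR or DESeq2, beside 0% of 21323 genes in the edgeR fit, and 0 had an unadjusted p under 0.05, beside 3.64% of all genes. Dhh values did not overlap, with 0, 0.781 and 0.230 normalized counts in aged O1, O2 and O3 and 1.24 and 1.54 in young Y1 and Y3, a separation that 20.6% of all genes showed. Its log2 fold change was -2.01 (SE 1.95, 95% interval -6.36 to 2.35). The Schwann cell sums given above were also all lower in the aged stroma, and their part was not tested. Ihh differed by 1.19 (SE 1.85), with 0.452 to 1.81 in aged and 0.206 and 0.591 in young stroma. The best measured members had narrower intervals, with Ptch1 at 0.0019 (95% interval -1.02 to 1.02) and Smo at -0.04 (-0.92 to 0.85).

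Gli2 was at 0.49, Gli3 at -0.46, Gli1 at -0.38 and Hhip at -0.71 in aged over young stroma on the log2 scale, all with intervals across 0. Among the other pathway genes 39 were tested and 0 were called by edgeR or DESeq2. Of these, 2 had an unadjusted p under 0.05 in edgeR, beside 3.64% of all genes. Foxf1 was 6.48, 12.8 and 9.41 normalized counts in aged O1, O2 and O3 against 1.91 and 4.61 in young Y1 and Y3, a log2 fold change of 1.54 (SE 0.58). The 5 smooth muscle genes summed to 941, 2051 and 816 in the aged and 303 and 599.9 in the young stroma, and their part in the Foxf1 values was not tested. Scube2 was at 1.23 (SE 0.50), with 6.24 to 11.1 in aged and 3.30 and 3.98 in young stroma. The ages did not overlap for Foxf1 or Scube2, a separation that 20.6% of all genes showed.

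**Figure D4:**
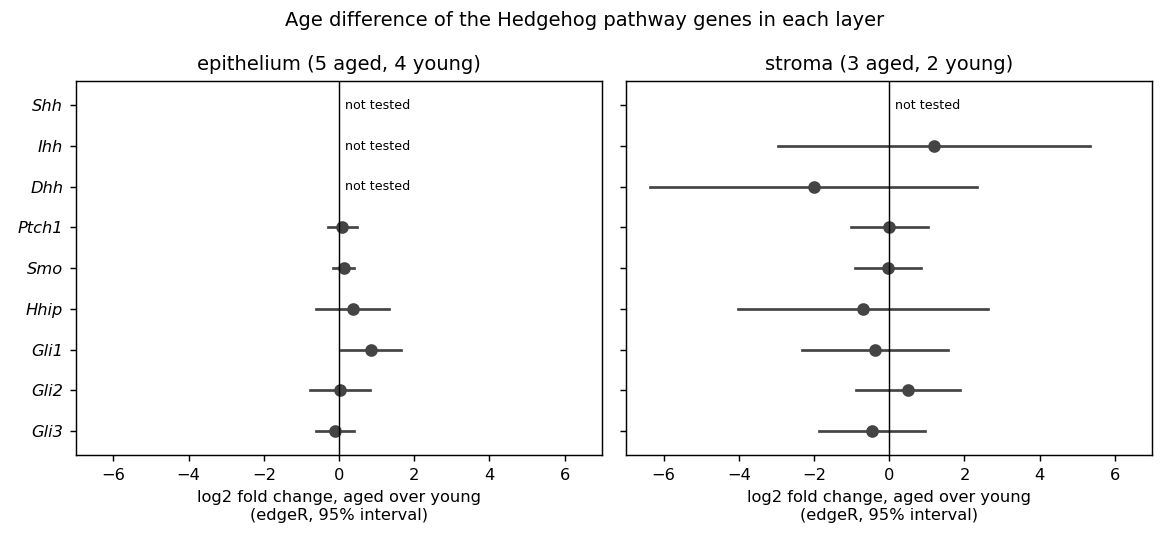
Log2 fold change of aged over young mice with 95% intervals for the 9 genes, in epithelium (5 aged, 4 young) on the left and stroma (3 aged, 2 young) on the right. Genes under the filter on low counts are marked as not tested. Smo and Ptch1 have the narrowest intervals in each panel, Gli1 in epithelium at 0.86 has an interval just above 0, and the stromal intervals of Ihh, Dhh and Hhip each span more than 6 log2 units.

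Whether the age difference itself differed between the layers was tested in the 10 libraries of the 5 mice with both layers. Of 8 members 0 were called by edgeR or DESeq2, beside 0% of 22771 genes in the edgeR fit, and 0 members had an unadjusted p under 0.05, beside 4.30% of all genes. The interaction was -5.14 (SE 2.40, unadjusted p = 0.0605 in edgeR) for Ihh, which rested on 4 epithelial counts in Y3 alone, 2.92 (SE 2.07) for Dhh and 1.30 (SE 0.79) for Gli1. It lay between -0.08 and 0.27 for Ptch1, Smo, Gli2 and Gli3, with SEs from 0.38 to 0.77.

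Finally, the genes whose levels followed the members most closely across the 9 epithelial libraries were listed for the 3 members with at least 10 counts in each, among 6847 genes and after centring each form of mouse code. Pearson correlations of log2(normalized count + 0.5) are a description, since the libraries share depth and tissue composition. The values given are the highest of 6847 over only 9 libraries. Such a choice gives high values by chance as well, and no p was computed. Ptch1 was most like Slc25a51 (r = 0.981), Cdc14b (0.979) and Asah2 (0.973). Smo was most like Dus1l (0.924), Plin2 (0.913) and Fam162a (0.902). Gli3 was most like Gfpt2 (0.964), Plin1 (0.944) and Ebf1 (0.934), of which Plin1, an adipocyte gene, had only 0 to 6 counts per epithelial library. Plin1 passed the limit on level only through stroma, with a mean of 38.6 normalized counts there and 0.0657 in epithelium. Its correlation therefore rests on very few counts.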

How the data were processed

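Poly(A)-enriched RNA of peeled epithelium and stroma was sequenced on an Illumina platform. According to the study's methods, the authors aligned reads to GRCm38.p6 from GENCODE with Rsubread and deposited unnormalized counts per gene from its featureCounts function. Versions, strand setting and the treatment of shared reads are not given in the sources used here. Groups came from the labels. Gene positions and exon lengths came from GENCODE M21, which held 53292 of 55291 symbols, and promoters from RefSeq.

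Counts were fitted with edgeR 4.0.16 (R 4.3.3) using TMM scaling, filterByExpr with a minimum count of 10, robust quasi-likelihood fits and Benjamini-Hochberg adjustment over all genes tested, at a threshold of 0.05. The study tested layers with DESeq2, used here (1.42.0) as an alternative. The script was tested on simulated counts with changes of 1 or 2 log2 units. Between layers it recovered 13 of 90 and 73 of 106, and for age in epithelium 54 of 97 and 91 of 101. Few genes were changed in the simulation, while the data called 56.2% of all genes between layers. The adjustment was therefore stricter in the simulation, and its recovery does not carry over to the layer test. For age in stroma it recovered 0 of 99 and 10 of 75, and for the interaction 0 of 95 and 1 of 86. In these last 2 comparisons a result of 0 called therefore says little about the absence of a difference. The ligands, which failed the filter between layers, were compared by exact permutation of library labels (scipy 1.17.1), chosen after the data were seen. The members and gene lists were chosen with earlier results of these data known. Named genes were the 9 members, the pathway genes that were called between layers or were a paralog or coreceptor, and the 3 most correlated genes of each well-counted member. A few listed genes outside this rule (Disp1, Sufu, Bmp4, Bcl2, Foxf2 and Cul3) were named after their values were seen. Some listed genes are counted but not reported by name here.

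Layers pair by the mouse code in the labels. After removal of group means, same-mouse layers correlated at 0.0423 to 0.141 (mean 0.0894, 5 mice) and layers of different mice at a mean of -0.0555. Removing group means itself pushes these values towards opposite signs. For the young mice Y1 and Y3 they are mirror images, 0.141 and -0.141, so these mice add only a single value. The contrast is therefore not a test of the pairing. All 20 replicate pairs differed beyond sampling noise (lowest chi-square per degree of freedom 9.93). Other settings were filters on low counts, upper quartile scaling, removal of ribosomal and mitochondrial RNA, covariates, sample subsets, mouse as a block, and each library left out.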

Additional observations from a re-analysis of the deposited data

Results flagged for a closer look

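In 7 of 35 groups of 4 to 10 libraries examined, the highest or lowest value of a member stood far from the others. This was judged on the log2(normalized count + 0.5) scale. Chance marks about 1 in 20 groups only where values are independent and normal. Here groups share libraries, and a lone value above zeros is always marked, so the 7 cannot be set against that rate. In 5 of the 7 groups a few counts stood against libraries at or near 0. Shh was at -0.78 in the epithelium of O3 (2 counts), highest among aged epithelium and among all epithelium, and at -0.91 in that of Y3 (1 count), highest among young epithelium. Ihh was at -0.44 in the epithelium of OM8 (1 count), highest among aged epithelium, and at -0.66 in that of Y3 (4 counts), highest among young epithelium. Gli2 was at -0.44 in the epithelium of OM8 (1 count), the lowest of 9, where the other epithelial libraries lay between 1.15 and 1.97. Gli3 was at 1.25 in the stroma of O3 (49 counts), the lowest of 5, where the other stromal libraries lay between 2.75 and 3.28. The layer result of Gli3 without each of these libraries is given above, and without the epithelium of OM8 the Gli2 log2 fold change between layers was -0.96 (adjusted p = 0.0103 in edgeR).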

How the results depend on the processing

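Smo was called higher in epithelium under all 22 alternatives run (0.65 to 1.17 on the log2 scale). The Ihh difference kept its direction and its side of the threshold under all 16 (exact permutation p up to 0.0079). None of these 16 paired the layers of a mouse. With 1 library left out, the Ihh differences ran from -0.81 to -0.41 normalized counts, the smallest without the stroma of O1. Gli2 stayed lower under all 21 and lost its call under 2, with no filter (-0.91, adjusted p = 0.0682 in edgeR) and with mouse as a replicate block. The replicate block changed no other call of a member. Pairing left 0 members lower and 5 higher and 16 lower among the other pathway genes, beside 4587 higher and 4003 lower of all 16713 genes tested. Requiring 10 counts in every sample dropped Gli2 from the test and gave 2 members lower (Ptch1 at -0.67 and Gli3 at -0.99). Of the other pathway genes 3 were then higher and 10 lower, beside 2047 higher and 2269 lower of all genes tested, which were fewer (6711). Leaving out 1 library gave 1 to 2 members lower, and without the stroma of Y1 the second was Ihh, which then passed the filter. Dhh, in alternatives chosen after seeing the data, was -0.63 in the 5 mice with both layers (exact permutation p = 0.103) and -0.83 to -0.45 with 1 library left out. Over all genes, calls between layers were 9441, 14026 with no filter and 4316 with 10 counts in every sample. For age in epithelium they were 2, 28 with DESeq2, 36 with no filter, 4 in the 5 mice with both layers, 1 in the other 4 and 0 without the covariate, in stroma 0, 2 with DESeq2 and 26 with no filter, and for the interaction 0, 62 with DESeq2 and 98 with no filter. The causes were not tested.

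The sign changes were all in values that were not called. Between layers, Hhip was 0.16 with no filter, 0.28 with the replicate block, 0.21 in the same 10 samples without it, and -0.30 to 0.14 with 1 library left out. For age in epithelium, Ptch1 was -0.093 in the 5 mice with both layers, and Smo -0.019 and Gli3 0.29 in the 4 without stroma. Gli2 was -0.049 with DESeq2 and -0.0084 without the covariate. With 1 library left out Hhip was -0.078 to 1.07, Gli2 -0.31 to 0.29 and Gli3 -0.24 to 0.13. For age in stroma, Ptch1 was -0.0035 with no filter, -0.038 with 10 counts in every sample, -0.092 with upper quartile scaling and -0.00077 without ribosomal and mitochondrial RNA, and with 1 library left out Ptch1 was -0.30 to 0.30 and Smo -0.34 to 0.29. For the interaction, Ptch1 was 0.0030 with the replicate block and Gli2 0.030 with upper quartile scaling. With 1 library left out Ptch1 was -0.36 to 0.085, Smo -0.15 to 0.58, Gli2 -0.57 to 0.34 and Gli3 -0.21 to 0.67. A lone young stromal library was then assumed to vary like the others. Age differences were less precise in stroma than in epithelium, with an SE of 0.40 against 0.13 for Smo, and the ligands rest on few counts.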
